A study of Rattus norvegicus with 6 samples.

Results

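The collagen genes were taken as the transcripts whose symbol is Col, a type number, the letter a and a chain number, with the most abundant row for each symbol. The rule found 24 genes among 16499 symbols (17221 rows), each with 1 row. By class, 9 encode chains of fibrillar collagens, 3 encode chains of type IV collagen, 4 encode FACIT collagens (fibril-associated collagens with interrupted helices), and 8 encode other types. They were measured by poly(A)-selected RNA-seq in synovial fibroblast-like cells (RASFLs), the adherent cells grown out of digested joint lining. All cells came from female Wistar rats with collagen-induced arthritis (CIA), before therapy, and had been expanded in medium with fetal bovine serum. The labels name them RA1 in 1 library and RA2 in the other library of each of 3 serological settings, 6 libraries in all, and say that the cultures were divided over the settings. RA1 and RA2 were therefore taken as 2 cell preparations that recur in every setting, and whether each came from a single rat was not given in the sources used here. The settings were medium plus fetal bovine serum (FBS), medium plus serum of untreated rats (MS−), and medium plus serum of rats receiving mechanical stimulation by needle, drawn at day 18 (MS+). The labels call the stimulation acupuncture. Replicates are the preparations, and the number of serum donors was not given in the sources used here. The MS− donors are called healthy in one label, and the study describes that serum both as drawn before therapy and as drawn in untreated CIA rats, so their disease state is not settled. FBS differs from both rat sera in species and in being fetal, as well as in treatment.

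Collagens are secreted proteins built from alpha chains that wind around each other into a helix. Fibrillar collagens (types I, III and V among them) assemble into the tensile fibrils of connective tissue, FACIT collagens sit on the surface of those fibrils, and type IV collagen forms the sheet-like network of basement membranes. Synovial fibroblasts make much of the matrix of the joint lining, and in arthritis the same cells take part in its remodelling.

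The libraries held 5463316 to 5991889 reads, and 3 reads corresponded to 0.491 to 0.551 CPM (read counts scaled to a common library size). Of the 24 collagen genes, 19 reached 1 CPM in both libraries of at least 1 setting and were tested among 9820 features, namely 8 fibrillar, 2 type IV, 3 FACIT and 6 others. Of 12 synovial fibroblast markers, 10 were tested, with a summed level of 43259 to 48287 CPM. Most of that sum was Fn1 (22665 to 30465 CPM) and Vim (11485 to 16559 CPM). Pdgfrb was at 2137 to 2518 CPM and Thy1 at 1089 to 1551, while Pdpn was at 16.5 to 42.4 and Fap at 2.78 to 9.19. Dcn and Lum (decorin and lumican, small proteoglycans of fibroblast matrix) were at or near 0 in every library, at most 0.901 and 0.918 CPM, and Prg4 (lubricin), whose row overlaps that of Tpr, was at 1.27 to 3.32 CPM. Of 8 macrophage markers, 5 were at 0 in all libraries, Ptprc among them. Endothelial markers summed to 0.181 to 1.47 CPM, with Cdh5, Tie1 and Emcn at 0.

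Collagen transcripts took a smaller share of the reads in both rat sera than in FBS, and the share differed by class. All 24 genes together took 9.05% and 8.18% of the reads in FBS (RA1, then RA2), 6.32% and 6.26% in MS−, and 7.32% and 6.78% in MS+. The means were 8.61% ± 0.617, 6.29% ± 0.0426 and 7.05% ± 0.378 (SD, n = 2 each). The 3 settings did not overlap, with FBS highest and MS− lowest in both preparations. In RNA of whole cultures, fewer cells of a type and less RNA per cell cannot be told apart.

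Fibrillar collagens made up most of these reads and followed the same order. Their share was 8.27% and 7.37% in FBS, 5.31% and 5.26% in MS−, and 6.13% and 5.63% in MS+. Type IV collagen was ordered differently, at 0.391% and 0.264% in FBS, 0.529% and 0.386% in MS−, and 0.665% and 0.483% in MS+, so that within each preparation it was lowest in FBS and highest in MS+. The sum of the other types had the same order within each preparation, at 0.377% and 0.528%, 0.472% and 0.607%, and 0.514% and 0.661%. Not every type in that sum followed it. Type VI was highest in FBS within each preparation, at 0.155% and 0.198%. It took 0.128% and 0.172% in MS−, and 0.138% and 0.191% in MS+. FACIT collagens took 0.00676% to 0.0132%. Within the collagen reads, the fibrillar part was 91.4% and 90.2% in FBS, 84.0% and 84.0% in MS−, and 83.8% and 83.0% in MS+. These sums are partial, since Col4a2, Col6a1 and Col12a1 were not analysed here and are in none of them. No test was made on these sums.

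**Figure D1:**
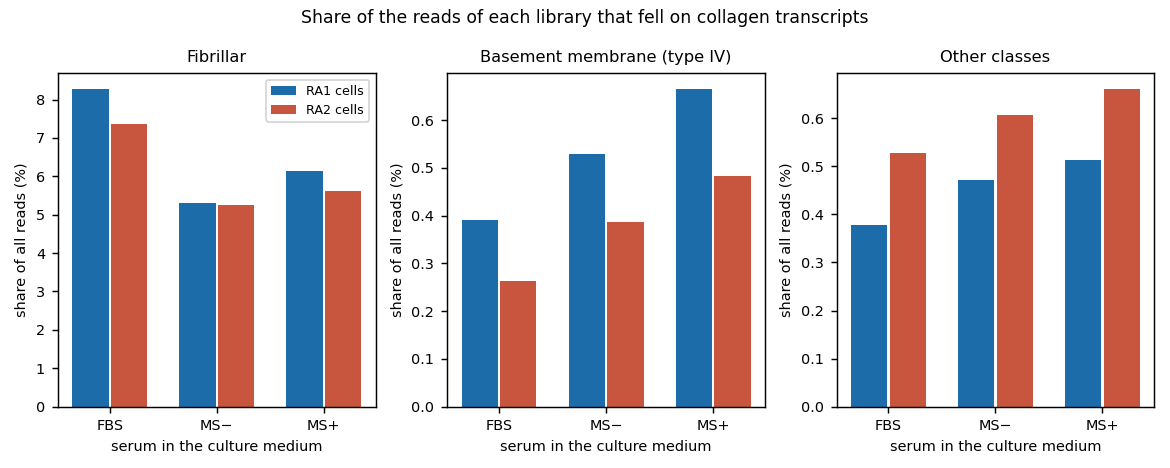
Share of all reads of each library (%, from 0) that fell on fibrillar, type IV and other collagen transcripts, by serum in the culture medium; bars are single libraries of RA1 (blue) and RA2 (red). Fibrillar shares are highest in FBS (8.27% and 7.37%), while type IV shares rise within each preparation from FBS to MS− to MS+ (0.391%, 0.529% and 0.665% in RA1). The type IV and other shares leave out Col4a2 and Col6a1, which were not analysed here.

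The comparisons of each rat serum with FBS addressed how the cells differ between rat serum and FBS, and they share the FBS libraries. Species, fetal origin and donor treatment cannot be told apart in them. Against FBS, 1 of the 19 tested collagens had a Benjamini-Hochberg (BH) adjusted p under 0.05 in MS−, where 4.81% of all features passed (2.72% lower). In MS+ it was also 1 of 19, where 9.61% of all features passed (4.66% lower). In both it was Col5a3, which was lower. These counts are from limma with serum as its sole term, called the unpaired fit here. Since the same 2 labels recur in every setting, a paired fit with the preparation as replicate block was set beside it. There 12 of 19 passed in MS−, 3 higher and 9 lower, beside 20.5% of all features (10.8% higher, 9.63% lower). In MS+ 12 of 19 passed when paired, 4 higher and 8 lower, beside 28.2% (14.4% higher, 13.9% lower). Of the 4 higher, Col7a1 had reached the limit for testing only through MS+, where it is high, and without it the count was 11 of 18, 3 higher and 8 lower. The 8 lower still include Col11a2, which reached the limit through FBS and MS− and not in MS+. The median log2 fold change of the 19 was -0.37 in MS− and -0.26 in MS+, and that of all features was 0.014 and 0.00078. All 8 fibrillar genes had negative log2 fold changes in both comparisons. The 2 type IV genes had positive ones, although the MS+ value of Col4a3 was 0.0048 and its sign changed under other scalings. In MS− the Col4a3 value of 0.16 (SE 0.95) combined 1.197 in RA1 with -0.87 in RA2.

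**Figure D2:**
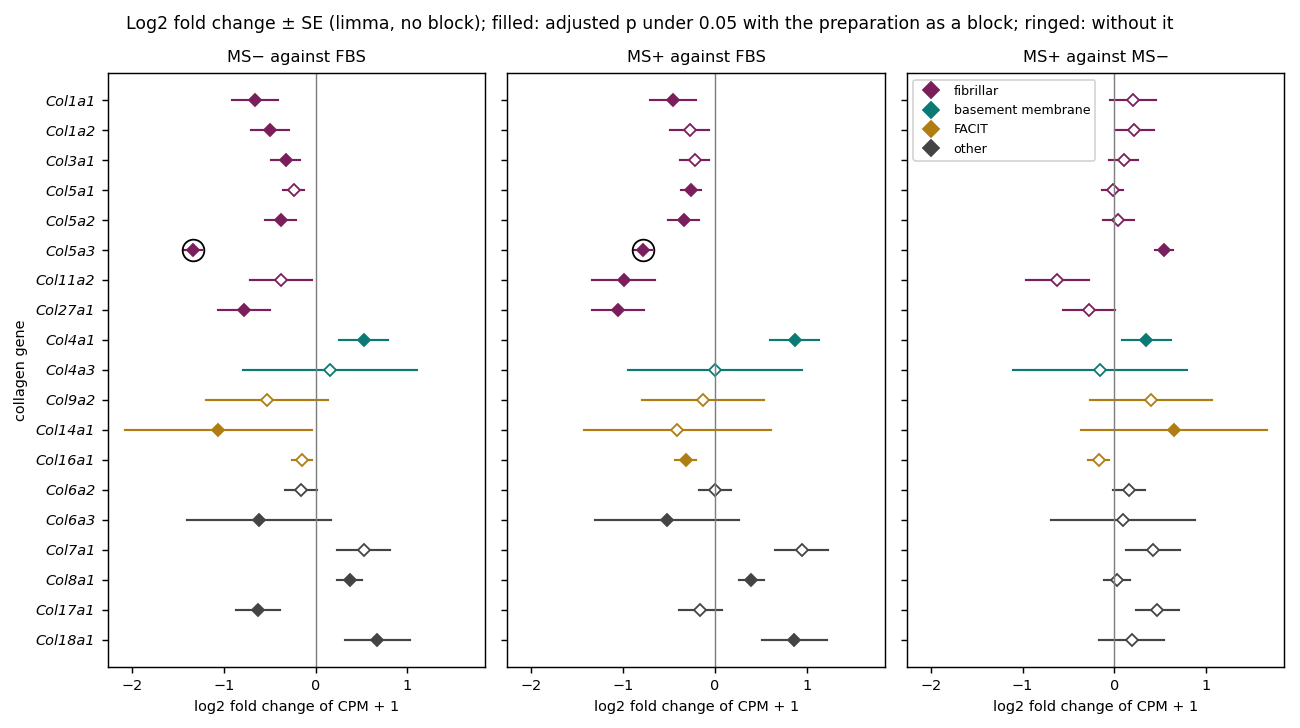
Log2 fold change of CPM + 1 (horizontal axis) for the 19 tested collagen genes in the 3 comparisons; diamonds are coloured by class and bars are ± SE from the unpaired limma fit. Filled diamonds have an adjusted p under 0.05 in the fit paired by preparation, and the ringed ones (Col5a3 at -1.33 and -0.79) also in the unpaired one; the fibrillar genes lie left of 0 in both FBS comparisons, and Col4a1, Col8a1 and Col18a1 lie right of it. Col7a1 is drawn open, since it was tested only because of its MS+ level. The filled diamond of Col11a2 in MS+ against FBS belongs to a gene that was tested only because of its FBS and MS− levels.

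Col5a3, the alpha 3 chain of type V collagen (chr8:19789061-19834241 in rn4, minus strand), was the collagen with the lowest log2 fold change in MS−. Type V collagen is a minor fibrillar type that sits inside type I fibrils and limits their width. Col5a3 measured 225 and 200 CPM in FBS, 83.4 and 83.9 in MS−, and 119 and 126 in MS+. The 3 settings did not overlap, and MS+ lay between the others. It fell by 1.33 on the log2 scale in MS− (SE 0.10, limma BH-adjusted p 0.0018) and by 0.79 in MS+ (SE 0.10, limma BH-adjusted p 0.0081). Paired, these adjusted p were 8.77e-08 and 1.40e-05. In MS+, the unpaired call was lost when FBS replicate 1 (adjusted p 0.0510) or MS+ replicate 1 (0.0679) was left out.

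The chains of type I and type III collagen, the main fibril formers, were lower in both rat sera. Col1a1 (chr10:83622438-83639368, plus strand) measured 40458 and 34296 CPM in FBS, 23563 and 23624 in MS−, and 28736 and 25507 in MS+. Col1a2 (chr4:29393645-29428572, plus strand) measured 22348 and 20843 CPM in FBS, 15249 and 15376 in MS−, and 18894 and 16778 in MS+. For both genes every FBS library was above every MS+ library, and every MS+ library above every MS− library. In MS− the log2 fold change of Col1a1 was -0.66 (SE 0.25), with a limma BH-adjusted p of 0.195 unpaired and 0.0038 paired. In MS+ it was -0.46 (SE 0.25), with adjusted p of 0.284 and 0.0243. Col1a1 in MS− passed without pairing in edgeR, DESeq2 and limma-voom. DESeq2 without pairing also passed Col1a1 in MS+ and Col1a2 in MS−. Col1a2 had -0.50 in MS− (SE 0.21, limma BH-adjusted p 0.239, paired 0.0118) and -0.28 in MS+ (adjusted p 0.439, paired 0.120). Col3a1, which forms type III collagen on its own, measured 9426 and 9190 CPM in FBS, 7375 and 7506 in MS−, and 8155 and 7807 in MS+, again with no overlap. It stood at a log2 fold change of -0.32 in MS−, which passed in limma only when paired (limma BH-adjusted p 0.301 and 0.0447). DESeq2 passed it there without pairing. In MS+ its log2 fold change was -0.22, which passed in neither limma fit (limma BH-adjusted p 0.413 and 0.139).

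The reads of the type I chains did not change in step. The ratio of Col1a1 to Col1a2 reads was 1.81 and 1.65 in FBS, 1.55 and 1.54 in MS−, and 1.52 and 1.52 in MS+. It was higher in both FBS libraries than in the other 4, and the fibril of type I collagen usually takes more alpha 1 than alpha 2 chains. The ratio of Col3a1 to Col1a1 reads was 0.233 and 0.268 in FBS, 0.313 and 0.318 in MS−, and 0.284 and 0.306 in MS+. These are ratios of reads, not of molecules, since transcript lengths were not used.

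Of the other chains of type V collagen, Col5a2 measured 6160 and 5428 CPM in FBS, 4752 and 4153 in MS−, and 5026 and 4157 in MS+. Col5a1 measured 2479 and 2453 CPM in FBS, 2025 and 2156 in MS−, and 2094 and 2026 in MS+. Both were higher in FBS than in any library of rat serum. Their log2 fold changes in MS− were -0.38 for Col5a2, which passed when paired (limma BH-adjusted p 0.0117), and -0.24 for Col5a1, which did not (0.0676). In MS+ both passed when paired, at -0.34 for Col5a2 (limma BH-adjusted p 0.0171) and -0.26 for Col5a1 (0.0376), and neither did unpaired. The ratio of Col5a3 to Col5a1 reads was 0.0908 and 0.0815 in FBS, 0.0412 and 0.0389 in MS−, and 0.0566 and 0.0624 in MS+, so the alpha 3 chain was lower also relative to the alpha 1 chain.

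Col27a1, a fibrillar chain best known from cartilage, measured 32.4 and 26.0 CPM in FBS, 18.8 and 14.5 in MS−, and 18.0 and 9.91 in MS+. FBS did not overlap the rat sera, and the rat sera overlapped each other. Its log2 fold change was -0.78 in MS− (SE 0.28, limma BH-adjusted p 0.181, paired 0.0033) and -1.06 in MS+ (SE 0.28, limma BH-adjusted p 0.0655, paired 1.97e-04). Col11a2, another chain of cartilage fibrils, was near the floor with 4 to 18 reads per library. It reached the 1 CPM limit through FBS and MS−, and not in MS+, where it had 4 and 5 reads. A higher level in those settings was thus a condition of its entry. Its difference between MS+ and FBS was -0.995 on log2(CPM + 1), given without a test. In MS− its change against FBS was -0.37 (limma BH-adjusted p 0.585, paired 0.455).

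Col4a1, the alpha 1 chain of the basement membrane network (chr16:83045183-83157835, plus strand), held nearly all reads of the 3 type IV genes measured (Col4a2, its usual partner chain, was not analysed here). It measured 3819 and 2577 CPM in FBS, 5254 and 3876 in MS−, and 6802 and 4834 in MS+. Both preparations had the same order, FBS lowest and MS+ highest, and the FBS libraries did not overlap those of either rat serum. The log2 fold change was 0.52 in MS− (SE 0.27) and 0.87 in MS+ (SE 0.27). The limma BH-adjusted p were 0.321 and 0.0912 unpaired, and 0.00115 and 8.04e-06 paired. Within RA1 and RA2 the MS− change was 0.46 and 0.59. Leaving out 1 library of the unpaired fit moved it to 0.81 (FBS replicate 1), 0.24 (FBS replicate 2) or 0.31 (MS− replicate 1). For 1 read of Col1a1, the libraries held 0.0944 and 0.0751 reads of Col4a1 in FBS, 0.223 and 0.164 in MS−, and 0.237 and 0.190 in MS+.

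Col18a1 (chr20:11872459-11982466, plus strand) encodes a proteoglycan-like collagen of basement membranes whose end fragment is endostatin. It measured 1086 and 2031 CPM in FBS, 1921 and 2928 in MS−, and 2173 and 3363 in MS+. The level was higher in RA2 in each setting, and within each preparation it was lowest in FBS. Its log2 fold change was 0.67 in MS− (SE 0.36) and 0.86 in MS+ (SE 0.36), with limma BH-adjusted p of 0.336 and 0.174 unpaired and 9.89e-05 and 7.82e-06 paired. Within RA1 and RA2 the change was 0.82 and 0.53 in MS−, and 0.9995 and 0.73 in MS+. Leaving out FBS replicate 1 of the unpaired fit gave 0.22 in MS− and 0.41 in MS+, leaving out FBS replicate 2 gave 1.13 and 1.31, and leaving out replicate 2 of the rat serum gave 0.37 and 0.55.

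Col8a1 (chr11:43604994-43733870, plus strand), a short-chain network collagen of vessel walls and other matrices, measured 1080 and 1199 CPM in FBS, 1507 and 1437 in MS−, and 1679 and 1339 in MS+. FBS lay below both rat sera without overlap. The log2 fold change was 0.37 in MS− (limma BH-adjusted p 0.190, paired 0.0169) and 0.40 in MS+ (0.121, paired 0.0083). Of 8 smooth muscle and pericyte markers, 7 had a row and 6 were tested. Their sum was also lowest in FBS, at 2745 to 3076 CPM, against 3512 to 3580 in MS− and 3455 to 3481 in MS+. Unlike Col4a1 and Col18a1, it was not highest in MS+. Most of it was Cspg4 (1681 to 2270 CPM) and Myh11 (625 to 1056 CPM), and Rgs5 was at 0. The part of these markers in the collagen differences was not tested.

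**Figure D3:**
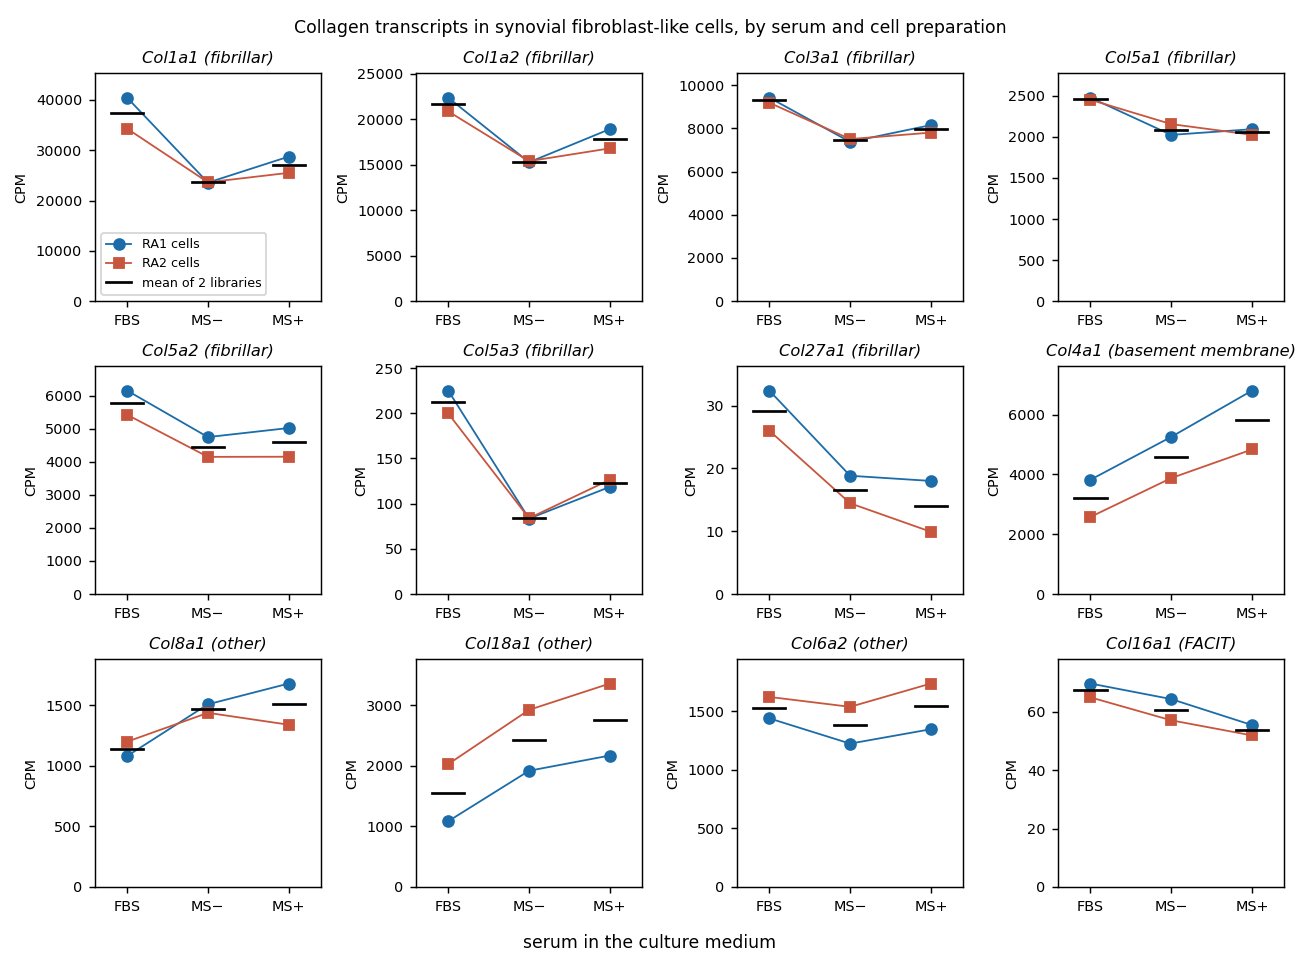
CPM (vertical axes from 0) of 12 collagen genes by serum; points are single libraries joined by preparation (RA1 blue circles, RA2 red squares) and black lines are the means of 2 libraries. Col1a1, Col1a2, Col3a1 and Col5a3 are lowest in MS− (Col5a3 at 83.4 and 83.9), whereas Col4a1 and Col18a1 are lowest in FBS in each preparation.

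The 250 bases before the RefSeq start of 2 genes that were lower in rat serum (Col1a2 and Col5a3) and 2 that were higher (Col4a1 and Col18a1) are shown, so that the start regions of the opposite groups can be set side by side. They are from RefSeq on GRCr8, a newer build than that of the expression table: Col1a2 chr4:33518307-33518556 (plus strand), Col5a3 chr8:27625949-27626198 (minus strand), Col4a1 chr16:84885347-84885596 (plus strand) and Col18a1 chr20:11473395-11473644 (plus strand). Each is written 5′ to 3′ along its gene, and capitals mark the motif CCAAT, the motif TATAAA and the motif GGGCGG on either strand, none of which overlap each other here.
Col1a2: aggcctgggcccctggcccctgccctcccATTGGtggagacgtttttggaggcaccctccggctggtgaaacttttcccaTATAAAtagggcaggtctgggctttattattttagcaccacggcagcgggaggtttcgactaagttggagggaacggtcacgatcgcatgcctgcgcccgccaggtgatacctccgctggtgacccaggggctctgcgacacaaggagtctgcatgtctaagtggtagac
Col5a3: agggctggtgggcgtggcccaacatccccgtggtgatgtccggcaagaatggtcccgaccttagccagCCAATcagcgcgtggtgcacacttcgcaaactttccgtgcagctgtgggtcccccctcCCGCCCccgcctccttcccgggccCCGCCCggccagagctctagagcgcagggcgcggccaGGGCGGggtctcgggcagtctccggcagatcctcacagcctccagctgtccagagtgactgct
Col4a1: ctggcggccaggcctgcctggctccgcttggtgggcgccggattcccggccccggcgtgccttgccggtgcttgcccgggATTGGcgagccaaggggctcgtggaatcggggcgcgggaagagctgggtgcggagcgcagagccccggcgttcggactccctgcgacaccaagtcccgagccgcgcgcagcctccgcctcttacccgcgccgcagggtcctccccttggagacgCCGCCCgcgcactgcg
Col18a1: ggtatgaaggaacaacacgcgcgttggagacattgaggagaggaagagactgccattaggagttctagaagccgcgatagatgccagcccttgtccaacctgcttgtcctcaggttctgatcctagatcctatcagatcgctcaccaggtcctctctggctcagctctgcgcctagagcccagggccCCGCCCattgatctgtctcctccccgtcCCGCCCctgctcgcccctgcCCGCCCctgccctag
Col1a2 held 1 CCAAT and 1 TATAAA, and Col5a3 held 1 CCAAT and 3 GGGCGG. Col4a1 held 1 CCAAT and 1 GGGCGG, and Col18a1 held 3 GGGCGG. Among all 33469 windows of this length, 34% held the motif CCAAT, 12.9% held TATAAA and 30.5% held GGGCGG. Among the 19 collagen genes with a window, 4 held CCAAT, 3 held TATAAA and 11 held GGGCGG. The matches describe letters in these windows and no binding was measured.

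Col6a3, a chain of the type VI beaded filaments that surround cells, measured 83.3 and 324 CPM in FBS, 58.2 and 196 in MS−, and 73.3 and 178 in MS+. The preparations differed more than the sera did, and within each preparation FBS was highest. Its log2 fold changes of -0.62 in MS− and -0.52 in MS+ passed when paired (limma BH-adjusted p 0.0023 and 0.0051) and not unpaired (0.711 and 0.711). Col6a2, another type VI chain, measured 1438 and 1621 CPM in FBS, 1223 and 1537 in MS−, and 1346 and 1736 in MS+, and passed in no comparison. Its MS+ value against FBS was 0.0012, and its sign changed under other scalings.

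Among the FACIT collagens, Col14a1, which binds the surface of type I fibrils, measured 10.3 and 42.1 CPM in FBS, 4.57 and 19.2 in MS−, and 5.77 and 39.8 in MS+. Within each preparation MS− was lowest. The log2 fold change was -1.06 in MS− (SE 1.02, limma BH-adjusted p 0.608, paired 0.00105), and -0.41 in MS+ (adjusted p 0.832 and 0.128). Col16a1 measured 69.7 and 65.0 CPM in FBS, 64.4 and 57.1 in MS−, and 55.5 and 51.9 in MS+. It differed by -0.15 in MS−, which passed in neither fit, and -0.32 in MS+, which passed when paired (limma BH-adjusted p 0.117 and 0.0274). Col9a2, a cartilage FACIT chain, measured 4.76 to 22.1 CPM and passed in no comparison.

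Of the low-level types, Col17a1, a transmembrane collagen of epithelial anchoring plaques, measured 10.8 and 11.3 CPM in FBS, 6.22 and 7.41 in MS−, and 7.75 and 12.3 in MS+. It passed in MS− when paired, at a log2 fold change of -0.63 (limma BH-adjusted p 0.196 and 0.0392). Col7a1, which forms the anchoring fibrils below epithelia, had 1 and 3 reads in FBS, 6 and 4 in MS−, and 8 and 9 in MS+. It reached the 1 CPM limit only through MS+, so a higher value there was a condition of its entry. Its log2 difference between MS+ and FBS was 0.95 on log2(CPM + 1), given without a test.

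MS+ was compared with MS− to ask how the cells differ between serum of stimulated rats and serum of untreated rats. MS+ serum was drawn at day 18, and the study's methods place the MS− draw before therapy. Stimulation, time of the draw and disease state of the donors cannot be told apart in this comparison. The fibrillar share was higher in MS+ within each preparation, by a factor of 1.15 in RA1 and 1.07 in RA2, and the type IV share by 1.26 and 1.25. In the unpaired fit, 0 of 19 collagens passed in limma, where 0.0204% of all features passed. At an unadjusted p under 0.05 there was 1, Col5a3, beside 14.7% of all features. edgeR passed 0 (0.0305% of all features), limma-voom 0 (0.0407%) and DESeq2 1 (1.25%). When paired, 3 passed, all higher in MS+, beside 10.1% of all features (5.27% higher, 4.78% lower): Col5a3, Col4a1 and Col14a1. The median log2 fold change was 0.16 for the 19 and -0.0058 for all features.

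Col5a3 was 1.46-fold higher in MS+ on the scale of the fit, with a log2 fold change of 0.54 (SE 0.10, limma BH-adjusted p 0.117, paired 0.0017). The change was 0.50 in RA1 and 0.59 in RA2. Col4a1 had 0.35 (SE 0.27, limma BH-adjusted p 0.612, paired 0.0331), at 0.37 in RA1 and 0.32 in RA2. Col14a1 had 0.65 (SE 1.02, limma BH-adjusted p 0.824, paired 0.0444), but its values in RA1 and RA2 were far apart, 0.28 and 1.02.

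The type I chains did not pass in this comparison. For Col1a1 the log2 fold change was 0.20 (SE 0.25, limma BH-adjusted p 0.772, paired 0.423) and Col1a2 had 0.22 (SE 0.21, 0.696 and 0.319). Their libraries did not overlap, but 1 MS+ library of each was close to MS−. Col18a1 had 0.19 and did not pass when paired (limma BH-adjusted p 0.237). Chondrocyte markers, of which 5 of 7 had a row and 2 were tested, were also lowest in MS−: they summed to 2586 to 3016 CPM in FBS, 1453 to 1832 in MS− and 2547 to 2672 in MS+. Nearly all of this was Acan (aggrecan, 1453 to 3012 CPM), with Matn1 at 0 and Lect1 at most 0.183 CPM. Its part in the fibrillar differences was not tested.

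Several collagens differed between RA1 and RA2 more than between sera. This contrast was chosen after the data were seen and rests on 2 preparations. In the paired fit 8 of 19 passed, 5 higher and 3 lower in RA2, beside 10.5% of all features (5.47% higher, 5.07% lower). Col14a1 was higher in RA2 by 2.13 on the log2 scale, Col6a3 by 1.65, Col9a2 by 1.36, Col18a1 by 0.71 and Col6a2 by 0.29 (limma BH-adjusted p at most 0.0131). Col4a3, Col4a1 and Col27a1 were lower in RA2, with log2 differences of -1.75, -0.50 and -0.49 (limma BH-adjusted p at most 0.0286). The type I, III and V chains did not pass. The ratio of Col6a3 to Col6a2 reads was 0.0579, 0.0476 and 0.0545 in RA1 (FBS, MS−, MS+) and 0.200, 0.128 and 0.102 in RA2.

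**Figure D4:**
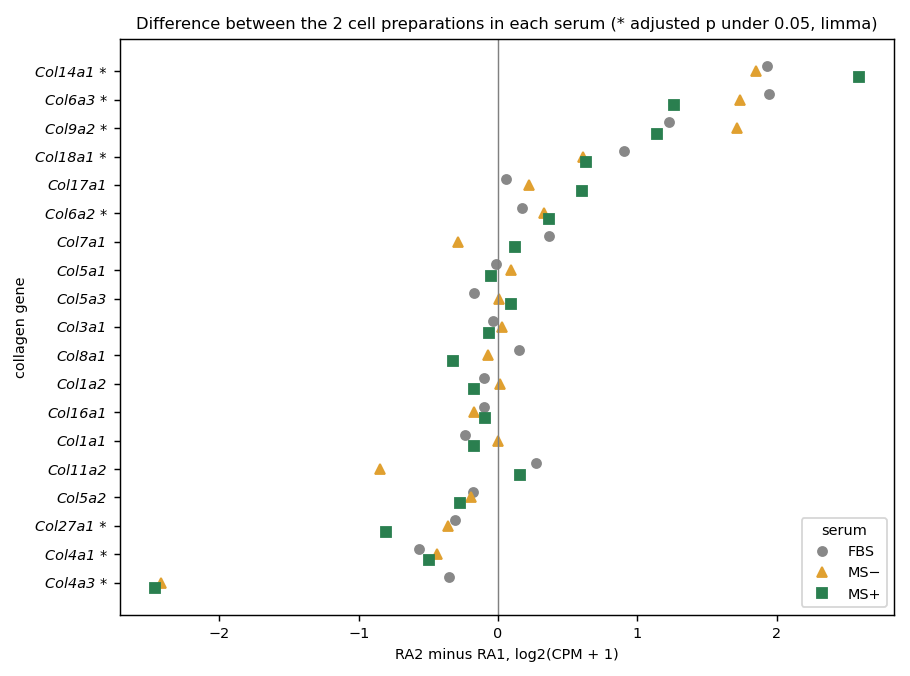
Difference between RA2 and RA1 in log2(CPM + 1) (horizontal axis) for the 19 tested collagen genes, with 1 point per serum (FBS grey circles, MS− orange triangles, MS+ green squares). Genes with a star passed an adjusted p under 0.05; Col14a1, Col6a3 and Col9a2 lie right of 0 in all sera, and Col4a3 lies left of it, at -0.35 in FBS and below -2.4 in both rat sera.

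Col4a3 and Col4a4, chains of a type IV network best known from kidney and lung, lie head to head on chromosome 9 with 567 bases between their spans (chr9:81910656-82036998, plus strand, and chr9:81866835-81910088, minus strand). Col4a3 was outside the rule for named genes and is given because it was singled out after its values were seen. It measured 15.7 and 12.1 CPM in FBS, 37.3 and 6.15 in MS−, and 33.9 and 5.32 in MS+. In RA1 both rat sera were above FBS, and in RA2 both were below it. Its neighbour Col4a4 had 0 and 8 reads in FBS, 3 and 3 in MS−, and 1 and 1 in MS+, and was not tested.

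The other 4 untested collagens were also at the limit of detection. Col2a1, the main collagen of cartilage and the protein type used to induce CIA, had 0 to 4 reads per library, Col23a1 had 0 to 6, and Col9a1 and Col13a1 had 0 or 1. At this depth a level under about 3 reads, or 0.491 to 0.551 CPM, could not be told from 0.

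Other genes of the collagen pathway were grouped into 7 lists with 59 entries, of which 53 had a row and 44 were tested. In the unpaired limma fit 1 was higher in MS− than in FBS and 3 in MS+, and 0 were lower, beside 4.81% and 9.61% of all features called. In MS+ against MS−, 0 passed, beside 0.0204%. When paired, the counts of the 44 were 8 higher and 6 lower in MS− (20.5% of all features called), 13 and 4 in MS+ (28.2%), and 6 and 3 for MS+ against MS− (10.1%).

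Of the folding genes, Serpinh1 (HSP47, the chaperone that holds newly made collagen in the endoplasmic reticulum) measured 3200 and 2848 CPM in FBS, 2104 and 2170 in MS−, and 2633 and 2683 in MS+. The settings did not overlap, in the order of the type I chains. The difference was -0.50 on the log2 scale in MS− against FBS (limma BH-adjusted p 0.0749, paired 0.0012) and 0.31 in MS+ against MS− (0.307, paired 0.0426). Fkbp14, a proline isomerase of the same compartment, measured 61.5 and 67.3 CPM in FBS, 65.1 and 77.0 in MS−, and 107 and 116 in MS+. It rose by 0.78 in MS+ against FBS (limma BH-adjusted p 0.0129). That call did not hold with FBS replicate 1 left out (0.0753), nor with MS+ replicate 1 (0.0746) or MS+ replicate 2 (0.0791) left out.

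Of the 14 tested enzymes that modify the chains, 3 were higher and 2 lower in MS− when paired. Of all features 20.5% passed there (10.8% higher, 9.63% lower). In MS+ 3 were higher and 1 lower when paired, beside 28.2% of all features (14.4% higher, 13.9% lower). P4ha2 (a prolyl hydroxylase subunit) had log2 fold changes against FBS of 0.64 in MS− and 0.74 in MS+, which passed only when paired (limma BH-adjusted p 1.05e-04 and 2.19e-05), and P4ha1 passed in no comparison. Plod2, a lysyl hydroxylase of crosslink sites, had 0.50 in MS−, again only when paired (limma BH-adjusted p 0.0056). P4ha3, a prolyl hydroxylase subunit like P4ha2, had -0.39 in MS+ against FBS and -0.50 against MS−, which passed when paired (limma BH-adjusted p 0.0059 and 0.0032). Lepre1, a prolyl 3-hydroxylase, had -0.49 in MS− against FBS and 0.65 in MS+ against MS−, which passed when paired (limma BH-adjusted p 0.0016 and 5.24e-04). Glt25d1, a collagen galactosyltransferase, had -0.28 in MS− against FBS (paired limma BH-adjusted p 0.0210).

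Of the crosslinking oxidases, Lox measured 191 and 404 CPM in FBS, 337 and 557 in MS−, and 388 and 486 in MS+. The FBS libraries overlapped those of both rat sera. Lox had 0.64 in both rat sera against FBS, which passed only when paired (limma BH-adjusted p 0.0017 and 0.0011). Loxl1, whose mean was 857 CPM in FBS against 772 for MS− and 503 for MS+, went the other way in MS+. It had -0.78 against FBS and -0.61 against MS−, which passed when paired (limma BH-adjusted p 7.25e-06 and 4.06e-04). Loxl4 had 0.75 in MS+ against FBS (paired limma BH-adjusted p 0.0031), and its libraries overlapped.

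Of the propeptide enzymes, Adamts14 measured 21.9 and 19.7 CPM in FBS, 23.2 and 22.2 in MS−, and 38.7 and 40.6 in MS+. It rose by 0.90 in MS+ against FBS (limma BH-adjusted p 0.0105), a call that did not hold with FBS replicate 2 left out (0.0561), nor with MS+ replicate 1 (0.0746) or MS+ replicate 2 (0.0672) left out. Pcolce (an enhancer of propeptide cleavage) and Bmp1 (a propeptide protease) had log2 fold changes of 0.29 and -0.28 in MS− against FBS, which passed only when paired (limma BH-adjusted p 0.0280 and 0.0245).

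Among proteins bound to fibrils, Ogn (osteoglycin) measured 293 and 182 CPM in FBS, 567 and 684 in MS−, and 555 and 568 in MS+. It rose against FBS by 1.43 in MS− (limma BH-adjusted p 0.0167) and by 1.28 in MS+ (0.0181). The MS− call was lost without MS− replicate 1 (adjusted p 0.0766) or MS− replicate 2 (0.112), and the MS+ call without MS+ replicate 1 (0.105) or MS+ replicate 2 (0.0913). Of the receptors, Ddr2 had -0.34 in MS− and -0.36 in MS+, which passed only when paired (limma BH-adjusted p 0.0203 and 0.0117), and Itga11 passed in no comparison. Mmp2, a gelatinase, had 0.65 and 0.53, which passed only when paired (limma BH-adjusted p 4.19e-05 and 2.31e-04).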

How the data were processed

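Poly(A)-selected libraries of 6 cultures were sequenced and low-quality reads removed for the authors. Per the labels and the study's methods, the authors aligned reads to rn4 (Bowtie2 2.1.0), counted them per transcript with HTSeq 0.5.4p3 (intersection-nonempty) and scaled the counts by TMM; the deposited signal is CPM on that scale. In that mode reads that fall only where transcripts overlap are lost. Whether strand was used is not given in the sources used here. Of the collagen rows, only Col7a1 and Col27a1 overlapped another row, each a microRNA without reads. Whole reads came out for 100% of values when columns were divided by the value of a single read (tolerance 1e-06), which were used for shares and count tests.

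Features with at least 1 CPM in both libraries of 1 setting were kept (9820). Differences were tested two-sided with limma 3.58.1 (eBayes with trend) in R 4.3.3 on log2(CPM + 1), with setting as the only term, all 6 libraries and Benjamini-Hochberg adjustment over all features. This scale understates the change of low genes. In the main text a gene passed at an adjusted p under 0.05. Every setting holds a library labelled RA1 and one labelled RA2, and the RA2 minus RA1 differences correlated across features by 0.62 (MS− and FBS), 0.49 (MS+ and FBS) and 0.59 (MS+ and MS−), so a paired fit (RA1 or RA2 as replicate block) was run beside it. edgeR 4.0.16, DESeq2 1.42.0 and limma-voom on the recovered reads were alternatives. P-values measure the spread between cultures of 2 preparations. The scripts were tested on simulated data.

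Libraries of a setting were not copies of each other (chi-square of reads per degree of freedom 13.5 to 15.2). Coordinates are rn4 as deposited, 1-based, except the windows from RefSeq (GRCr8). The members and lists were chosen with earlier results of these data known. Values were given for collagens that passed in any comparison, for the 3 largest rises and falls in each, and for Col1a1, Col1a2, Col3a1, Col5a1 and Col4a1; Col4a2, Col6a1 and Col12a1, also on that list, were not analysed here. The planned design named limma-voom for raw counts and this fit for normalized values. Osteoblast markers summed to 1.80 to 13.7 CPM and macrophage markers to 13.8 to 20.5 CPM, mostly Cd14. The floors in reads and CPM cover counting error only, and each SE is from the limma fit.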

Additional observations from a re-analysis of the deposited data

Results flagged for a closer look

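Col4a3 moved in opposite directions in the 2 cell preparations. Its log2 change in MS− against FBS was 1.197 in RA1 and -0.87 in RA2, a gap of 2.07, and in MS+ against FBS it was 1.06 and -1.05, a gap of 2.11. Both comparisons use the same FBS libraries, and with 1 library per preparation and setting the difference was not tested. The values rest on 29 to 204 reads per library.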

How the results depend on the processing

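The count of collagens that passed depended on the replicate block. In MS− against FBS it was 1 without it and 12 with the replicate block, 2 with edgeR, 4 with DESeq2, 2 with limma-voom and 13 with blocked edgeR (4.73%, 5.45%, 4.45% and 21.1% of all features). In MS+ against FBS it was 1, and 12 with the replicate block (9.61% and 28.2% of all features). DESeq2 passed 4 there (8.26% of all features), and edgeR with the block 13 (29.1%). Both blocked counts include Col7a1, and also Col11a2, which reached the limit only through FBS and MS−. In MS+ against MS− it was 0, and 3 with the replicate block (0.0204% and 10.1% of all features). DESeq2 passed 1 there (1.25%), and edgeR with the block 3 (10.3%). The other settings (pseudocount 0.1, no filter, 5 CPM filter, DESeq2 size factors, library totals, summed rows) kept each count. The mean shares of all reads moved by less than the spread between libraries under DESeq2 size factors and, chosen after the data were seen, TMM scaling.

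Of 963 log2 fold changes of the 19 genes under alternatives, 853 kept direction and side of the threshold, 61 newly passed, 2 were lost and 47 changed sign, none of them of a gene past the threshold without the block. Apart from fits without 1 library, the sign changed for Col4a3 in MS+ against FBS (-0.0336 at pseudocount 0.1, -0.0414 with library totals, -0.0267 with limma-voom), for Col6a2 in MS+ against FBS (-0.00247 with DESeq2 size factors, -0.0476 with library totals, -0.00374 with limma-voom, -0.00429 with edgeR and the block) and for Col6a3 in MS+ against MS− (-0.012 with edgeR, -0.015 with DESeq2). Of the changes that passed when paired and kept their sign, leaving out 1 library moved some by over 1.5 times: Col14a1 in MS− against FBS to -2.02 and -1.99 (without FBS replicate 1 or MS− replicate 2), -0.094 (FBS replicate 2) and -0.13 (MS− replicate 1), Col5a2 and Col27a1 in MS+ against FBS to -0.20 and -0.66 (MS+ replicate 2), Col8a1 in MS+ against FBS to 0.23 (MS+ replicate 1), and Col4a1 in MS+ against MS− to 0.56 and 0.13 (MS− replicates 1 and 2) and 0.099 and 0.59 (MS+ replicates 1 and 2). Leaving out 1 library in turn gave, in MS− against FBS, ranges of -0.80 to 0.048 for Col11a2, -1.05 to 1.37 for Col4a3, -1.39 to 0.33 for Col9a2, -0.32 to 0.0090 for Col6a2 and -1.59 to 0.36 for Col6a3. In MS+ against FBS they were -1.23 to 1.24 for Col4a3, -0.74 to 0.49 for Col9a2, -1.71 to 0.89 for Col14a1, -0.18 to 0.19 for Col6a2, -1.498 to 0.45 for Col6a3 and -0.46 to 0.14 for Col17a1. In MS+ against MS− they were -0.066 to 0.025 for Col5a1, -0.096 to 0.18 for Col5a2, -0.68 to 0.12 for Col27a1, -1.39 to 1.08 for Col4a3, -0.46 to 1.26 for Col9a2, -0.65 to 1.95 for Col14a1, -0.027 to 0.34 for Col6a2, -0.78 to 0.96 for Col6a3, -0.14 to 0.19 for Col8a1 and -0.13 to 0.50 for Col18a1. A fit without 1 library assumes that the lone library of that setting varies like the others; it mixes the preparations unevenly, and the cause of each change was not tested.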
